A study of Mus musculus with 6 samples.

Results

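The deubiquitinase genes described here are 77 of the 41064 genes in the deposited table, which lists 19788 protein-coding genes. They were chosen by name: protein-coding genes whose symbols begin with Usp and a digit, Otub, Otud, Uch or Josd, together with Atxn3, Bap1, Cyld, Tnfaip3, Stambp, Stambpl1, Brcc3, Psmd14 and Mysm1. The rule reads symbols and no measured value, and it was set with earlier results of these data known. By family they are 53 USP, 11 OTU, 5 UCH, 5 JAMM and 3 Josephin genes. Uchl1os and Usp46os2 also matched the name patterns but are not protein-coding and were left out. Usp6nl matched by its name alone, since its product is a GTPase-activating protein and no deubiquitinase, and Usp39 encodes a splicing factor without deubiquitinase activity. RNA was sequenced from the aortas of mice given angiotensin II (Ang II), a peptide hormone that raises blood pressure and remodels the vessel wall. Aortas labelled JOSD2 KO were compared with aortas labelled WT, with 3 libraries in each group, and KO and WT below stand for the libraries so labelled. Both groups received Ang II, and no library of an untreated aorta was analysed here. Strain, age, sex, Ang II dose, length of treatment and the way the knockout was made are given by no source used here.

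Ubiquitin is a small protein that is attached to other proteins, singly or in chains, to mark them for the proteasome or to change their location and partners. Deubiquitinases cut it off again. The USP, UCH, OTU and Josephin families are cysteine proteases that differ in their catalytic domains, and the JAMM family are zinc metalloproteases, among them Psmd14, which strips chains from proteins as they enter the proteasome. In the vessel wall, deubiquitinases that act on TGF-beta receptors and SMAD proteins are of interest because that pathway drives matrix production, and the series title names SMAD7, the inhibitory SMAD, as the substrate of JOSD2.

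The Josephin family is the one that holds the targeted gene, so its catalytic stretch is shown first. Each line gives 60 coding bases from the first transcript of that gene in GENCODE M21, in the mRNA direction, with the codon of the catalytic cysteine in capitals.
Josd2: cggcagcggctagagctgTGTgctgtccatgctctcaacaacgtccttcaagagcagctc
Josd1: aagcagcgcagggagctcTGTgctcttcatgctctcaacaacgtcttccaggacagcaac
Atxn3: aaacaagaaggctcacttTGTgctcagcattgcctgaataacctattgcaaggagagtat
Of the 60 bases, 42 were identical to Josd2 in Josd1 and 28 in Atxn3. The Josd2 stretch is present in 19 of 19 annotated Josd2 transcripts. The Atxn3 stretch is present in 4 of 5, and Josd1 has 1 transcript. The deposited values are 1 count per gene and library, so reads over this stretch cannot be told apart from reads over the rest of Josd2.

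The libraries held 69788553 to 75886761 estimated counts in the KO group, against 63612353 to 74241278 in the WT group. Mitochondrially encoded genes took 23.8% to 23.9% of counts in KO libraries, against 36.2% in each WT library. FPKM, the deposited level per kilobase of exon, is scaled to totals that include those genes, and with library totals the median of all tested genes sat 0.41 higher in KO on the log2 scale. Tests here therefore used trimmed-mean (TMM) scaling, which put that median at -0.00, and CPM below means counts scaled to a common library size in this way. The smooth muscle markers summed to 19795 to 19913 CPM in KO, against 20346 to 20522 CPM in WT. Acta2 was lower (-0.30), Myh11, Smtn, Cnn1 and Lmod1 were higher (0.24 to 0.28) and Tagln did not pass. The extraction text in the labels speaks of adipose tissue, and white fat markers summed to 658 to 666 CPM in KO, against 510 to 542 CPM in WT. Most of that sum was Fabp4 (597 CPM in KO, 483 in WT). Fabp4 (0.30), Adipoq (0.93) and Plin1 (1.13) were higher, while Cidec (-0.24), Lep (0.84) and Retn (0.01) did not pass. Other lists differed more: endothelium stood at 726 to 737 CPM in KO against 398 to 414 CPM in WT, macrophages at 273 to 278 against 567 to 581, erythroid cells at 293 to 297 against 425 to 428, and brown fat at 181 to 194 against 89.3 to 95.7. Most of the brown fat sum was Dio2 (172 CPM in KO, 82.4 in WT), while the defining gene Ucp1 did not pass (-0.24). Elovl3 was at 0 in every KO library, but also in WT libraries 2 and 3. Markers of kidney (0.528 to 0.908 CPM in KO, 16.4 to 17.5 in WT), lung (1.77 to 2.91 in KO, 13.9 to 18.7 in WT) and seminal vesicle (up to 0.0480 in KO, 2.43 to 3.48 in WT) were higher in WT. Cldn18, Svs2 and Svs4 were at 0 in every KO library and above 0 in every WT library. Kap and Umod were also at 0 in every KO library. However, Kap was at 0 in WT libraries 1 and 3 too, and Umod in WT libraries 2 and 3. The part of these differences in the results below was not tested. In bulk tissue, fewer cells of a type and less RNA per cell cannot be told apart. The labels do not tie libraries to animals beyond naming 3 mice in each group, so p-values measure the spread between these samples. Some genes lay very close within a group: Acta2 had 8040, 8041 and 8030 CPM in KO, and Aqp2 had 17.4, 16.1 and 16.4 CPM in WT. Others spread further, such as Rps27a with 182, 83.7 and 82.8 CPM in KO. Whether the libraries hold the full spread between separate animals was not tested.

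Small shifts in both directions were found across the deubiquitinase genes, and more of them were higher than lower in KO. Of the 72 members with enough counts to test, 16 were higher in KO (22.2%), where 13.2% of all tested genes and 16.1% of tested protein-coding genes were. Another 4 were lower (5.56%), where 11.5% of all genes and 13.7% of protein-coding genes were, and 52 did not pass. Together 27.8% of the tested members passed, against 24.7% of all genes, by the quasi-likelihood test of edgeR, with p-values adjusted over 20132 genes after Benjamini and Hochberg. Among tested protein-coding genes it was 29.7%. The share that passed was thus near that of all genes. The split by direction depended on scaling and length: with library totals 52 members were higher and 0 lower, against a background of 46.8% higher and 3.81% lower. With totals that leave out mitochondrial genes and their nuclear copies it was 17 and 3 (background 14.7% and 10.3%), and with a length trend removed 12 were higher and 8 lower (background 10.8% and 11.9%). The median log2 fold change of the tested members was 0.04, and that of all tested genes was -0.00. The changes were small: by edgeR 0 of the 72 were called at 1.5-fold or more, and 0 also by DESeq2 or at an unadjusted p under 0.05, while 10.7% of all tested genes reached that size with a call. The largest called change was 1.47-fold, in Usp11. In 28 of 72 members (38.9%) the KO and WT libraries did not overlap, near the 41.1% of all tested genes and the 45.6% of protein-coding ones.

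**Figure D1:**
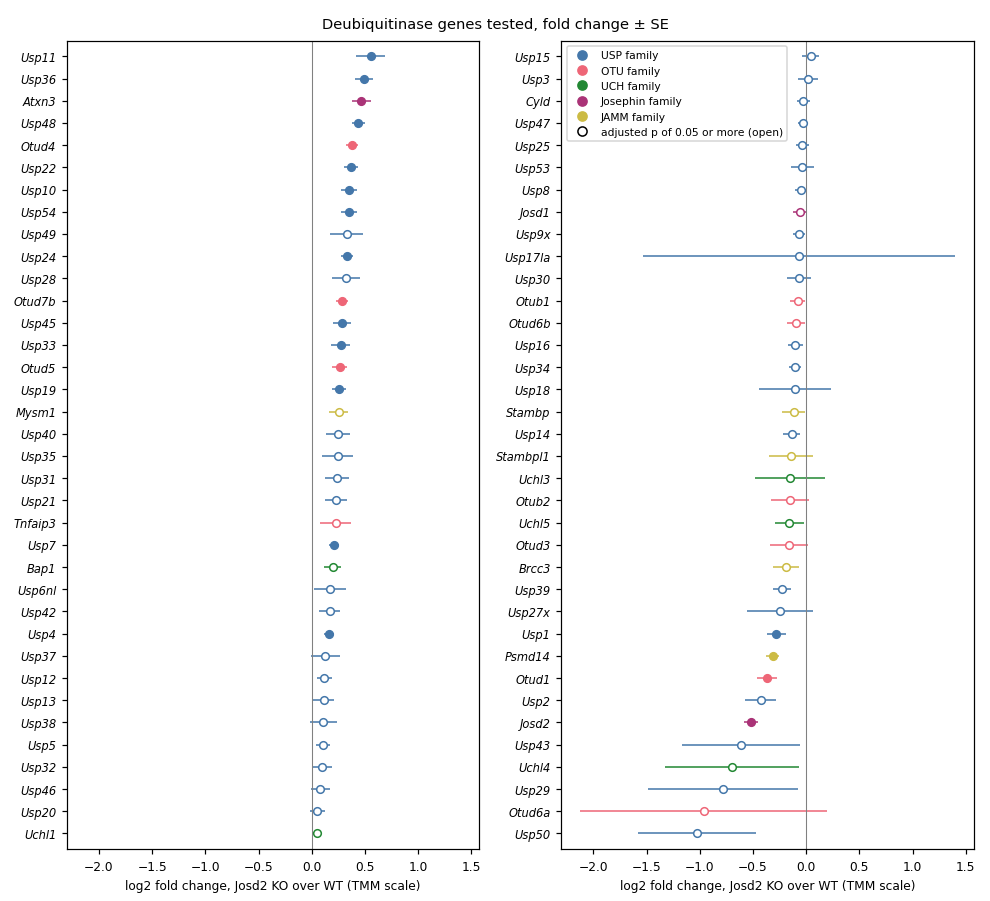
Log2 fold change, KO over WT on the TMM scale, of each of the 72 tested members with its standard error (3 libraries per group), ordered from highest to lowest and coloured by family. Filled points passed the adjusted p threshold of 0.05: 16 lie right of 0 and 4 left of it, whereas with library totals 52 members were higher and 0 lower.

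Josd2 (ENSMUSG00000038695, chromosome 7, 44467980 to 44471662, plus strand, in the table's coordinates) was lower in KO and still well counted there. It had 21.7, 19.9 and 21.4 CPM in the KO libraries, against 29.9, 31.0 and 29.3 CPM in the WT libraries. The groups did not overlap, and KO stood at -0.52 on the log2 scale (SE 0.07, adjusted p = 0.000244, edgeR), 1.43-fold lower. The estimated counts behind these values were 1742, 1737 and 1780 in KO, against 1649, 1762 and 1890 in WT, and overlapped before scaling. With library totals the difference was -0.11 (adjusted p = 0.231), the same sign without a call, against the upward shift of all genes given above. No source used here gives the deleted part, and a deletion that leaves most of the transcript in place cannot be told apart from retained expression in a count per gene.

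The other Josephin genes moved in different ways. Josd1 (chromosome 15), the closest relative of Josd2, had 27.9, 27.9 and 29.6 CPM in KO, against 29.6, 28.1 and 31.3 CPM in WT. The groups overlapped, and the difference of -0.06 did not pass (SE 0.07, adjusted p = 0.588, edgeR). Of the bases of the longest Josd1 transcript, 17.7% are near-identical to the pseudogene Gm10651. With library totals Josd1 stood at 0.35 and passed (adjusted p = 0.00133). Atxn3 (chromosome 12), which encodes ataxin-3, a chain-editing enzyme that works with the segregase Vcp and whose human polyglutamine expansion causes Machado-Joseph disease, was higher. It had 24.7, 21.6 and 21.3 CPM in KO, against 15.4, 16.5 and 17.1 CPM in WT. These groups were apart, with a log2 fold change of 0.46 (SE 0.09, adjusted p = 0.0028, edgeR). Vcp itself was lower, at 210 ± 5.21 CPM in KO and 241 ± 2.88 CPM in WT (SD, n = 3 each; log2 fold change -0.20, adjusted p = 0.000382, edgeR), and at 0.21 with library totals. Within a library, Josd2 made up 38.99% ± 0.515 of the summed FPKM of the 3 Josephin genes in KO, against 49.5% ± 1.81 in WT (SD, n = 3 each). This share does not depend on scaling between libraries, and the groups did not overlap (two-sided exact permutation p = 0.1, the smallest that 3 against 3 allows).

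**Figure D2:**
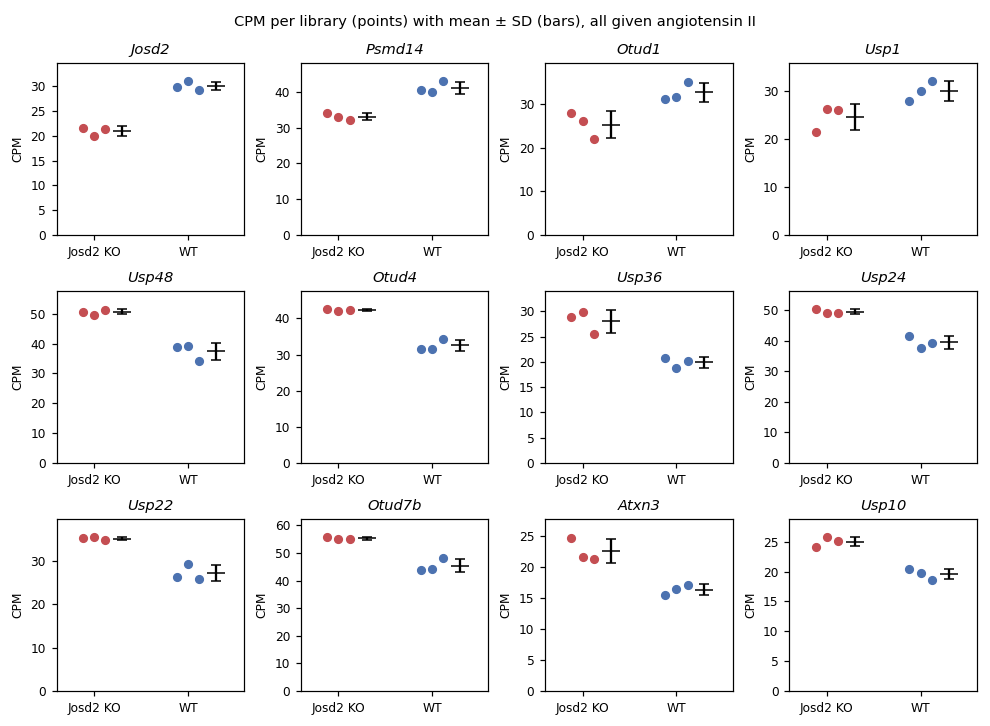
CPM on the TMM scale in each library (points) with the mean and SD beside them, for the 4 members lower in KO (top row) and the 8 higher members with the smallest p. The KO and WT points do not overlap in any of the 12 panels. With library totals 0 of the 4 were called lower, and Psmd14, Otud1 and Usp1 stood above 0.

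Among the JAMM metalloproteases, Psmd14 was lower and the other members did not pass. Psmd14 (chromosome 2), the deubiquitinase subunit of the 19S proteasome lid, had 34.2, 33.0 and 32.1 CPM in KO, against 40.5, 40.0 and 43.2 CPM in WT. The groups were apart, and the log2 fold change was -0.32 (SE 0.06, adjusted p = 0.00262, edgeR) but 0.09 with library totals (adjusted p = 0.228). Mysm1, which removes ubiquitin from histone H2A, had 17.7, 20.6 and 21.1 CPM in KO, against 16.3, 16.8 and 16.7 CPM in WT. These did not overlap either, yet the difference of 0.25 missed the threshold (SE 0.09, adjusted p = 0.0653). Stambp and Stambpl1, which act on receptors at endosomes, and Brcc3, the chain-cutting subunit of a DNA-damage complex, overlapped between the groups. Of the 17 other 19S subunits listed, 0 were higher and 5 were lower by edgeR (2 and 7 by DESeq2, and likewise at an unadjusted p under 0.05). The 5 were Psmd8, Psmd2, Psmc6, Psmc3 and Psmc1, and the list had a median of -0.09 against -0.00 for all genes. They made up 29.4% of the list, where 11.5% of all tested genes were lower. Psmd8 was the first of these, at 96.0 ± 2.13 CPM in KO and 121 ± 5.66 CPM in WT (log2 fold change -0.33, adjusted p = 0.000176, edgeR). With library totals 16 of the 17 were higher, 0 were lower and their median was 0.32. The other deubiquitinases of the proteasome, Usp14 and Uchl5, stood at -0.14 and -0.16 and did not pass (adjusted p = 0.258 and 0.466), with 26.0% of the Usp14 exon bases overlapped on the other strand by Thoc1.

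In the OTU family 3 of the 10 tested members were higher (30%) and 1 was lower (10%). Of all tested genes, 13.2% were higher and 11.5% lower. The family's median was -0.09 (0.32 with library totals). Otud4 (chromosome 8), known as a scaffold in the repair of alkylated DNA, had 42.6, 41.9 and 42.3 CPM in KO, against 31.7, 31.6 and 34.3 CPM in WT. Its KO libraries lay close together and above every WT library, with a log2 fold change of 0.38 (SE 0.06, adjusted p = 0.000695, edgeR). Otud7b (chromosome 3), also called Cezanne, which cuts lysine-11 chains and restrains NF-kappaB, had 55.9, 55.1 and 55.1 CPM in KO, against 43.8, 44.4 and 48.3 CPM in WT. It too was apart between the groups (log2 fold change 0.28, SE 0.05, adjusted p = 0.00274, edgeR). Otud5 (chromosome X), which cuts chains on TRAF3 and so limits type I interferon, had 55.6, 51.4 and 53.6 CPM in KO, against 49.2, 42.5 and 42.3 CPM in WT (log2 fold change 0.26, SE 0.07, adjusted p = 0.0155, edgeR). The groups did not overlap, but the call was lost without KO library 1, KO library 3, WT library 2 or WT library 3 (adjusted p = 0.0507 to 0.067). Otud1 (chromosome 2), which in human cells was described to remove ubiquitin from SMAD7, had 27.9, 26.1 and 21.9 CPM in KO, against 31.2, 31.7 and 35.2 CPM in WT. The groups were apart at -0.37 (SE 0.09, adjusted p = 0.0139, edgeR), but the value was 0.04 with library totals, and the call was lost without KO library 3 (adjusted p = 0.0526) or WT library 3 (adjusted p = 0.0623). Tnfaip3 (A20), an NF-kappaB inhibitor, had 7.80, 7.16 and 8.54 CPM in KO, against 6.22, 7.67 and 6.21 CPM in WT. These overlapped (log2 fold change 0.23, adjusted p = 0.312, edgeR).

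The USP family, with 49 of the 72 tested members, gave 12 of the 16 higher members and 1 of the 4 lower. Thus 24.5% of its tested genes were higher and 2.04% lower, against 13.2% and 11.5% of all tested genes. The family's median was 0.10 (0.51 with library totals). Its members were described by the processes in which they are best known. These role lists overlap, since Usp7, Usp4, Otub1 and others belong to more than 1, and they are not complete: Josd2 and Otud1 are not on the TGF-beta list, Otud4 is not on the DNA repair list and Otud5 is not on the NF-kappaB and interferon list.

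Of the 9 tested members that act on chromatin, 2 were higher and 0 were lower by edgeR (4 and 0 by DESeq2, and likewise at an unadjusted p under 0.05). By edgeR the shares were 22.2% and 0%, against 13.2% and 11.5% of all tested genes. DESeq2 called 17.8% of all genes higher and 16.8% lower, and with library totals 8 of the 9 were higher. Usp22 (chromosome 11), the histone H2B deubiquitinase of the SAGA coactivator complex, had 35.2, 35.4 and 34.7 CPM in KO, against 26.2, 29.4 and 25.9 CPM in WT. The KO libraries sat above every WT library (log2 fold change 0.37, SE 0.07, adjusted p = 0.00216, edgeR). Atxn7, which with Usp22 forms the SAGA deubiquitinase module, was higher as well, at 26.3 ± 1.68 CPM in KO and 18.3 ± 1.90 CPM in WT (SD, n = 3 each; log2 fold change 0.52, adjusted p = 0.00177, edgeR). Of the other listed subunits of that module, Atxn7l3 was higher (0.26, adjusted p = 0.0179) and Eny2 did not pass (-0.11, adjusted p = 0.341). Usp7 (chromosome 16), which stabilizes Mdm2 and p53, had 80.8, 77.5 and 74.3 CPM in KO, against 67.2, 64.1 and 69.8 CPM in WT. The groups were apart by a small margin (log2 fold change 0.21, SE 0.05, adjusted p = 0.0108, edgeR), and the call was lost without KO library 1 (adjusted p = 0.0531). Bap1, the nuclear H2A deubiquitinase and a tumour suppressor, stood at 30.7 ± 2.05 CPM in KO and 26.8 ± 1.74 CPM in WT and did not pass (log2 fold change 0.19, adjusted p = 0.0922, edgeR). Its partners Hcfc1 and Ogt were higher, at 0.32 (adjusted p = 0.00204) and 0.52 (adjusted p = 1.5e-05), while its partners Asxl1 (0.12), Asxl2 (0.13), Foxk1 (0.16) and Foxk2 (-0.07) did not pass.

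Of the 9 tested members listed for DNA repair and replication, which leave out the higher Otud4, 3 were higher and 1 was lower. These are 33.3% and 11.1%, against 13.2% and 11.5% of all tested genes. Usp48 (chromosome 4), which removes ubiquitin from histone H2A at DNA breaks, had 50.7, 49.7 and 51.4 CPM in KO, against 38.8, 39.1 and 34.1 CPM in WT. It had the smallest p of the higher members (log2 fold change 0.44, SE 0.06, adjusted p = 0.000435, edgeR), and the groups did not overlap. Usp45 (chromosome 4), an enzyme that acts on the repair nuclease subunit ERCC1, had 20.7, 21.2 and 22.5 CPM in KO, against 18.7, 16.4 and 17.9 CPM in WT (log2 fold change 0.28, SE 0.08, adjusted p = 0.0293, edgeR). The groups did not overlap, but the call was lost without any 1 of the KO libraries, WT library 2 or WT library 3 (adjusted p = 0.0533 to 0.119). Usp1 (chromosome 4), which with Wdr48 removes ubiquitin from FANCD2 and PCNA, had 21.5, 26.3 and 25.9 CPM in KO, against 27.8, 29.9 and 32.0 CPM in WT. Although the groups were apart, its log2 fold change of -0.28 was just past the threshold (SE 0.09, adjusted p = 0.0449, edgeR) and turned to 0.13 with library totals. The call was lost without any 1 of the KO libraries, WT library 2 or WT library 3 (adjusted p = 0.0583 to 0.166), with no filter (adjusted p = 0.109) and with totals that leave out mitochondrial genes and copies (adjusted p = 0.0668). In addition, 60.9% of the bases of the longest Usp1 transcript are near-identical to Gm5841. The 10 proliferation genes listed were lower in all 10 cases, between -0.42 (Pcna) and -2.41 (Ccnb1), and in 7 cases with library totals. Their part in the Usp1 difference was not tested. Wdr48 was higher, at 41.97 ± 3.09 CPM in KO and 31.9 ± 1.11 CPM in WT (log2 fold change 0.39, adjusted p = 0.00143, edgeR).

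Of the 9 tested members listed for TGF-beta receptors and SMAD proteins, which leave out the lower Josd2 and Otud1, 2 were higher and 0 were lower by edgeR. These are 22.2% and 0%, against 13.2% and 11.5% of all tested genes. The list's median was -0.07 (0.34 with library totals). By DESeq2, and at an unadjusted p under 0.05, 2 were higher and 1, Usp2, was lower. Usp11 (chromosome X), which protects the type I TGF-beta receptor, had 9.34, 8.60 and 8.67 CPM in KO, against 6.64, 6.16 and 5.34 CPM in WT. The groups were apart and the log2 fold change of 0.55 was the largest called among the members (SE 0.14, adjusted p = 0.0127, edgeR), though the call was lost without KO library 1 (adjusted p = 0.057). Usp4 (chromosome 9), its paralogue with the same receptor as a substrate, had 80.2, 75.4 and 72.9 CPM in KO, against 68.7, 68.4 and 67.9 CPM in WT. Its change was the smallest called (log2 fold change 0.16, SE 0.05, adjusted p = 0.0321, edgeR) and was lost without any 1 of the WT libraries, KO library 1 or KO library 2 (adjusted p = 0.0595 to 0.132). Usp15, the paralogue that joins the SMAD7 and SMURF2 complex, had 30.0, 36.7 and 31.7 CPM in KO, against 32.8, 30.8 and 32.0 CPM in WT. It overlapped fully (log2 fold change 0.04, adjusted p = 0.765, edgeR). Usp9x, which acts on SMAD4, stood at -0.07 (adjusted p = 0.442), and Uchl5, which binds SMAD7, at -0.16 (adjusted p = 0.466). Cyld, which limits NF-kappaB and also acts on SMAD7, stood at -0.03 (adjusted p = 0.802). Usp2 had 6.09, 7.504 and 6.51 CPM in KO, against 7.81, 9.48 and 9.75 CPM in WT. The groups did not overlap, and its log2 fold change of -0.43 missed the threshold (SE 0.14, adjusted p = 0.0542, edgeR), while robust dispersion, DESeq2 and 4 other settings put it past it (adjusted p = 0.00788 to 0.0458). Usp2 transcripts cycle with the day in mouse tissues, and of the 12 clock genes tested 9 were higher and 2 lower (10 and 1 with library totals), among them Dbp at 0.78 and Per3 at 1.102. No source used here gives the hour of tissue collection, and its part was not tested.

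Of the 10 members listed for NF-kappaB and interferon signalling, which leave out the higher Otud5, 2 were higher (Otud7b and Usp4) and 1 was lower (Otud1). These are 20% and 10%, against 13.2% and 11.5% of all tested genes. Usp18, which removes the ubiquitin-like ISG15, had 2.33, 2.70 and 3.04 CPM in KO, against 3.32, 3.97 and 1.41 CPM in WT. WT library 3 was the lowest of the 6 and WT library 2 the highest, so the groups overlapped (log2 fold change -0.11, SE 0.34, adjusted p = 0.861, edgeR). Among 12 interferon-stimulated genes, 0 were higher by edgeR, by DESeq2 or at an unadjusted p under 0.05, and 3 were lower by edgeR: Oas1a at -0.91, Irf7 at -0.48 and Isg15 at -0.56 (adjusted p = 0.00559, 0.0253 and 0.0278, edgeR), of which 0 passed with library totals. Among 10 NF-kappaB target genes 3 were higher and 4 lower, including Nfkbia at 0.84 and Vcam1 at -1.49, and with library totals 4 were higher and 3 lower.

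Of the 8 members that act at endosomes and on receptor recycling, 2 were higher and 0 were lower by edgeR, as also by DESeq2 and at an unadjusted p under 0.05. By edgeR the shares were 25% and 0%, against 13.2% and 11.5% of all tested genes. Usp10 (chromosome 8), which binds the stress granule protein G3bp1 and aids the recycling of membrane channels, had 24.1, 25.7 and 25.1 CPM in KO, against 20.4, 19.8 and 18.6 CPM in WT. These were apart (log2 fold change 0.35, SE 0.07, adjusted p = 0.0053, edgeR), and G3bp1 itself stood at 0.03 and did not pass (adjusted p = 0.679). Usp33 (chromosome 3), which with Usp20 returns beta-adrenergic receptors to the cell surface, had 28.3, 32.4 and 33.8 CPM in KO, against 27.0, 27.9 and 23.5 CPM in WT. KO library 1 lay just above the highest WT library, and the log2 fold change was 0.27 (SE 0.09, adjusted p = 0.0483, edgeR). The call was lost without KO library 2, KO library 3, WT library 1 or WT library 3 (adjusted p = 0.0734 to 0.178), and with median-of-ratios factors (adjusted p = 0.0528). Genes on the other strand overlap 24.4% of the Usp33 exon bases, and strand use in counting is not given. Usp8, which acts with Stam and Hgs on sorted receptors, stood at -0.05 and Usp20 at 0.05. Of the 4 members tied to mitochondria, Usp30, Usp35, Usp15 and Usp8, 0 passed by edgeR, 0 by DESeq2 and 0 at an unadjusted p under 0.05, whereas with library totals 4 of the 4 were higher.

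Further USP genes outside these lists were higher. Usp36 (chromosome 11), a nucleolar enzyme that supports ribosomal RNA synthesis and stabilizes Myc, had 28.8, 29.8 and 25.4 CPM in KO, against 20.8, 18.7 and 20.3 CPM in WT. The groups were apart (log2 fold change 0.49, SE 0.08, adjusted p = 0.0013, edgeR). Usp24 (chromosome 4), a very large relative of Usp9x, had 50.5, 49.1 and 49.0 CPM in KO, against 41.7, 37.6 and 39.2 CPM in WT. Its groups were apart (log2 fold change 0.33, SE 0.06, adjusted p = 0.00142, edgeR). Usp54 (chromosome 14), a little-studied relative of Usp53, had 29.2, 28.9 and 30.0 CPM in KO, against 24.8, 21.2 and 23.2 CPM in WT (log2 fold change 0.35, SE 0.08, adjusted p = 0.006, edgeR). Usp19 (chromosome 9), an enzyme with a form anchored in the endoplasmic reticulum and a role in muscle wasting, had 83.7, 89.0 and 81.0 CPM in KO, against 71.1, 77.1 and 64.3 CPM in WT. Its KO libraries all exceeded its WT libraries (log2 fold change 0.26, SE 0.07, adjusted p = 0.0145, edgeR), and the call was lost without KO library 2 (adjusted p = 0.0698).

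The UCH family had 5 tested members, of which 0 passed by edgeR and 1, Bap1, by DESeq2 and at an unadjusted p under 0.05. Their median was -0.15 (0.26 with library totals). It also holds the member with the highest deposited FPKM. Uchl1, best known as a major protein of neurons, had 46.1, 46.1 and 47.2 deposited FPKM in KO, against 33.8, 35.2 and 32.8 FPKM in WT. On the TMM scale it had 77.2, 77.3 and 78.9 CPM in KO, against 75.2, 78.2 and 72.8 CPM in WT. Those groups overlapped, with a log2 fold change of 0.05 (SE 0.04, adjusted p = 0.511, edgeR). Uchl1 alone made up 14.0% ± 0.234 of the summed FPKM of all members in KO, against 13.9% ± 0.423 in WT (SD, n = 3 each). The nerve and Schwann cell markers summed to 36.1 to 36.8 CPM in KO, against 46.8 to 49.4 CPM in WT, with the Schwann cell gene Pmp2 at 0 in all libraries. Uchl3 and Uchl4 share near-identical exon stretches, so their counts are uncertain.

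**Figure D3:**
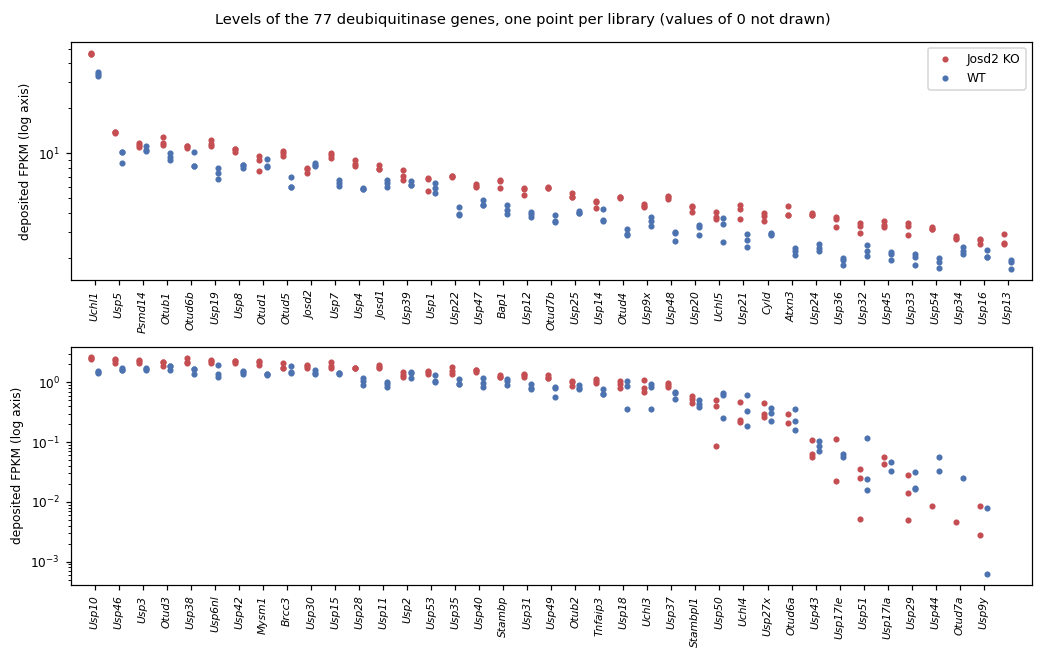
Deposited FPKM of the members on a log axis, 1 point per library, in falling order of the mean over 6 libraries. Uchl1 stands alone at the top, 5 genes average 10 FPKM or more, and the KO points lie above WT for most genes, on a scale whose totals include mitochondrial genes.

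Next by the mean FPKM over all 6 libraries was Usp5, which takes apart free ubiquitin chains, at 13.8 ± 0.0311 FPKM in KO and 9.68 ± 0.940 FPKM in WT (SD, n = 3 each). Psmd14 had 11.4 ± 0.358 in KO and 10.7 ± 0.465 in WT. Otub1, which blocks the ubiquitin-conjugating enzyme Ubc13, had 11.96 ± 0.790 in KO and 9.52 ± 0.486 in WT, and Otud6b had 11.1 ± 0.133 in KO and 8.92 ± 1.17 in WT. In WT libraries every Psmd14 value lay above every value of Usp5, Otub1 and Otud6b, which overlapped among themselves. By the mean over all libraries, 13 members lay between 5 and 10 FPKM, 40 between 1 and 5, 11 between 0.1 and 1, and 8 below 0.1. Josd2 was in the second band, at 8.01, 7.35 and 7.91 FPKM in KO, against 8.31, 8.61 and 8.17 FPKM in WT. The 5 members too low to test were Otud7a, Usp17le, Usp44, Usp51 and Usp9y, with at most 20 estimated counts in any library. With the summed counts as total, the deposited FPKM gave a length 1.18 times the union of a gene's GENCODE exons for most genes. A total larger than the summed counts would give the same factor, and the source of the factor was not tested. A length in a fixed ratio to the exon union takes in rarely used exons too.

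The families' summed levels changed little once the libraries were scaled. All 77 members summed to 331 ± 1.79 deposited FPKM in KO and 244 ± 2.66 in WT, a ratio of 1.35, but to 287 ± 1.95 and 282 ± 3.18 on the TMM scale, a ratio of 1.02 (SD, n = 3 each). On that scale the ratio of KO to WT was 1.06 for USP, 0.991 for OTU, 1.03 for UCH, 0.885 for Josephin and 0.857 for JAMM genes, all above 1 in deposited FPKM. The JAMM sum was 14.97 ± 0.0358 TMM-scaled FPKM in KO and 17.5 ± 0.316 in WT, with Psmd14 its largest member. KO and WT libraries did not overlap for all members together or for the USP, Josephin and JAMM sums (exact permutation p = 0.1, the smallest possible), and they overlapped for OTU (p = 0.7) and UCH (p = 0.5). Josd2 was 2.34% ± 0.1197 of all members' FPKM in KO, against 3.42% ± 0.0833 in WT.

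Ratios of paralogues within a library do not depend on scaling between libraries. Of 24 pairs listed, 20 could be compared, and in 9 of them the KO and WT libraries did not overlap. For single genes in CPM, the groups did not overlap in 41.1% of all tested genes and 45.6% of protein-coding ones. No such share is given for ratios of other gene pairs, so the 9 cannot be called more than usual. The ratio was higher in KO for Usp11 over Usp15, Usp24 over Usp9x and Usp36 over Usp42, and lower for 6 others. Josd2 over Josd1 was 0.961 in KO and 1.32 in WT as a geometric mean, so that Josd2 was the higher of the pair by FPKM in WT and not in KO. The log2 ratio was 0.02, -0.10 and -0.09 in KO libraries, against 0.39, 0.52 and 0.29 in WT libraries. Usp24 over Usp9x was 0.877 in KO and 0.669 in WT, with little spread between libraries (log2 SD 0.02 in KO and 0.03 in WT). Usp2 over Usp21 had the largest gap of the 9, at 0.328 in KO and 0.516 in WT. Usp25 over Usp28, Usp16 over Usp45, Usp30 over Usp35 and Usp53 over Usp54 were lower by 0.31 to 0.39 on the log2 scale. Each of the 9 had the smallest exact permutation p that the design allows, 0.1, and 0.222 after adjustment over the 20 pairs, so 0 passed.

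**Figure D4:**
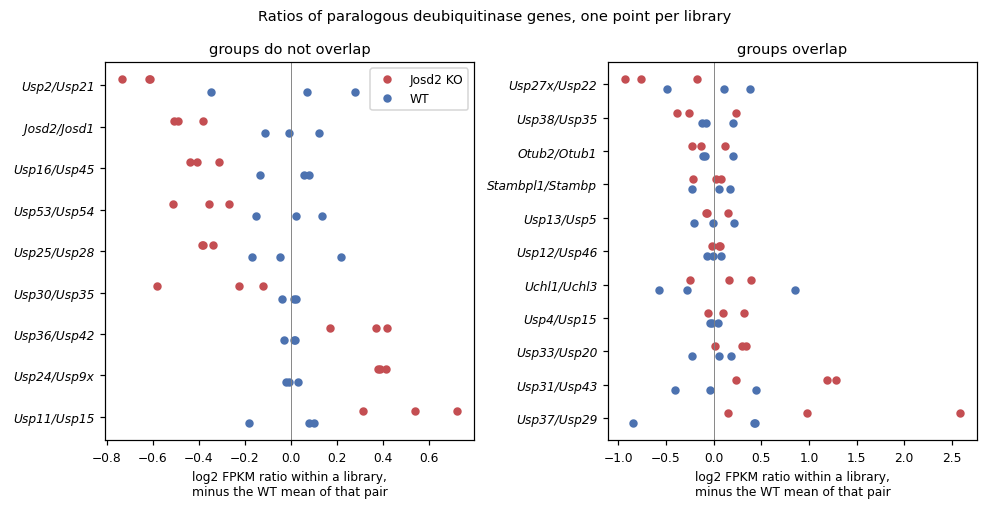
Log2 ratio of the FPKM of 2 paralogous members within each library, set to 0 at the WT mean of that pair, with KO points above WT points for each pair. The left panel holds the 9 pairs whose groups do not overlap, with Usp2 over Usp21 lowest in KO and Usp11 over Usp15 highest, and the right panel the 11 pairs whose groups overlap, on its own axis range.

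Exon length moved with the calls. The 16 higher members had exon unions of 4732 to 12350 bases (median 7931), the 4 lower members 2633 to 3733 bases (median 2826), and those that did not pass 873 to 18453 bases. Over all protein-coding genes the median log2 fold change was -0.13 under 2 kb, -0.04 from 2 to 4 kb, 0.04 from 4 to 6 kb, 0.08 from 6 to 9 kb and 0.12 from 9 kb. The members' medians in the same bins were -0.43 (4 genes), -0.16 (14), 0.12 (17), 0.17 (18) and 0.05 (19), so the longest members did not stand highest. With that trend removed in a fit chosen after seeing the data, 11 of the 16 higher members and all 4 lower members kept their calls. Usp4, Usp7, Usp19, Usp33 and Usp45 lost theirs (adjusted p = 0.0987 to 0.538), Uchl1 became higher, and Usp2, Usp9x, Usp34 and Usp47 became lower. The members' median was then -0.03. Josd2 stood at -0.48 (adjusted p = 0.000429) and Atxn3 stayed called.

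**Figure D5:**
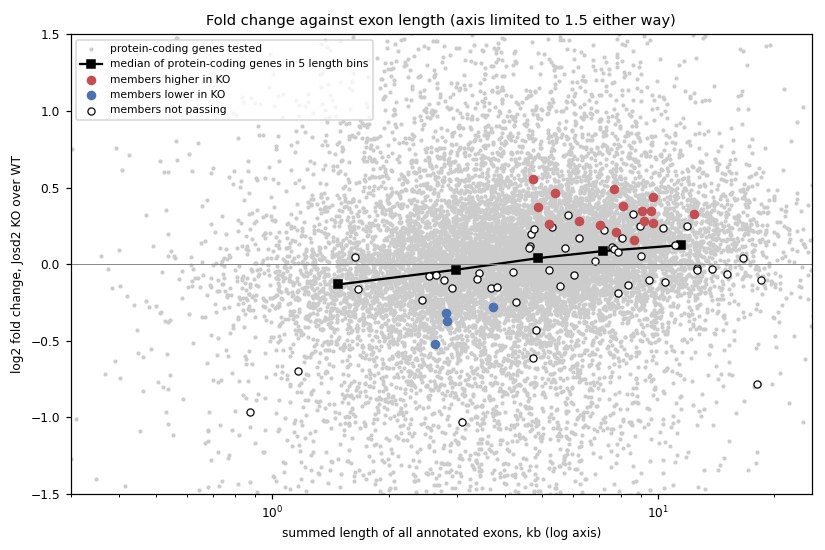
Log2 fold change, KO over WT on the TMM scale, against the summed length of a gene's annotated exons on a log axis, for protein-coding genes (grey) and members (coloured by call). Black squares are the medians of protein-coding genes in 5 length bins, lowest at -0.13 for the shortest genes and highest at 0.12 for the longest. The 16 higher members (4732 to 12350 bases) lie right of the 4 lower members (2633 to 3733 bases), of which 0 were called lower with library totals.

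Genes around the members in the ubiquitin system were mixed in direction. Of 18 other listed deubiquitinases and relatives, some of them inactive, that the name rule does not reach, 1 was higher and 3 were lower, with a median of -0.01. These are 5.56% and 16.7%, against 13.2% and 11.5% of all tested genes. Prpf8, a spliceosome core protein with an inactive JAMM domain, was at 0.20, while the translation factor subunit Eif3f was at -0.14, Vcpip1, a partner of Vcp, at -0.23 and Mindy2 at -0.29. All 4 stood above 0 with library totals. Among 7 ubiquitin and E1 genes, Uba7, the E1 enzyme for ISG15, had 21.9, 21.02 and 20.8 CPM in KO, against 13.8, 11.5 and 12.9 CPM in WT. That was the largest change of this list (log2 fold change 0.74, SE 0.09, adjusted p = 0.000163, edgeR). Uba1, the main ubiquitin E1, was at -0.20 (adjusted p = 0.00487; 0.21 with library totals). Of 30 partner proteins of deubiquitinases, 6 were higher (20%) and 4 lower (13.3%), with a median of 0.01. Beside Ogt, Atxn7, Wdr48, Hcfc1 and Vcp, these were Rbck1 and Atxn7l3 (higher) and Gmps, Tnip1 and Hgs (lower).

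The promoters of the 2 lower and the 2 higher members with the smallest p are shown to set the members' promoter sequence beside their calls. Each is the 250 bases before the RefSeq start on GRCm38.p6, plus strand, and capitals mark, on either strand, the GC box letters GGGCGG, the box named CCAAT and the ETS motif letters CCGGAAG.
Josd2, chr7:44467730-44467979: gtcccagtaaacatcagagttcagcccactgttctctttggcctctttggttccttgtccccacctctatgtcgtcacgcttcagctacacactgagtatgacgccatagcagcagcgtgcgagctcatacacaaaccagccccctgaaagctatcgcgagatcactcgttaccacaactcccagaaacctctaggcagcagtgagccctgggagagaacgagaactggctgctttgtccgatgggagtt
Psmd14, chr2:61711444-61711693: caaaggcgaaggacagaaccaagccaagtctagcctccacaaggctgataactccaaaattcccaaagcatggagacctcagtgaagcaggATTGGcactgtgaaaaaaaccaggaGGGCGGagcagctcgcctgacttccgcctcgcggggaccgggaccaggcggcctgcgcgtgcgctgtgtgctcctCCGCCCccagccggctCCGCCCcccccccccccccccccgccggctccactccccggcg
Usp48, chr4:137593922-137594171: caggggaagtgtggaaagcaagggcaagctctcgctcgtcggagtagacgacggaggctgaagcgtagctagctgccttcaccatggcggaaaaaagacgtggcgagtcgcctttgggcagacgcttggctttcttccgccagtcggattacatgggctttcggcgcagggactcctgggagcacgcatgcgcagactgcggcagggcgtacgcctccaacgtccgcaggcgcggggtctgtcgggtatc
Otud4, chr8:79639426-79639675: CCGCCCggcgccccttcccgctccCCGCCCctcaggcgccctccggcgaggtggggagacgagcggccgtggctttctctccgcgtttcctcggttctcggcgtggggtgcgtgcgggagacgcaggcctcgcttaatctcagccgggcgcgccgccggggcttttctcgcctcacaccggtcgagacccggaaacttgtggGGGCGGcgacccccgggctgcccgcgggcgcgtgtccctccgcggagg
Psmd14 held 3 GC boxes and 1 CCAAT box, Otud4 held 3 GC boxes, and Josd2 and Usp48 held none of the 3 motifs in this window. By the deposited coordinates Usp48 starts at 137593755, so its window lies wholly inside the gene and not before that start. Otud4 starts at 79639618 by the same coordinates, and its window runs past that start. Of the 77 members 62 had a promoter in the RefSeq table, 70 promoters in all. A GC box was in 64.3% of them, against 32.7% of all 32851 promoters of the table. The share was the same, 64.3%, among the 14 promoters of higher members, and 2 of 3 promoters of lower members had one. CCAAT was in 31.4% against 33.8% of all promoters, CCGGAAG in 12.9% against 6.91%, the E-box CACGTG in 14.3% against 6.02%, and TATAAA in 4.29% against 12.4%. The other motifs searched were TGCGCA (7.14% against 6.43%), the AP-1 site TGACTCA (4.29% against 4.46%), the CRE TGACGTCA (1 of 70 against 1.55%), the SMAD palindrome GTCTAGAC (1 of 70 against 0.167%) and the D-box TTATGTAA (0 of 70 against 0.819%). The 1 promoter with the SMAD palindrome belonged to neither a higher nor a lower member. Both strands were searched, no motif contains another, and a match is letters in a window and not a binding site.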

How the data were processed

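Polyadenylated RNA of 6 aortas was sequenced as paired-end libraries, per the labels' protocols. Per the submitters' processing notes, which give neither roles nor order, Bowtie 0.12.2 and HISAT2 2.0 were used, and build mm8 is named. No source used here names the counting tool, the annotation or the use of strand. The table's coordinates were identical to GENCODE M21 on GRCm38 for 66 of the 77 members, so GRCm38 is used here and no mm8 coordinate is printed. The values are counts and FPKM, per the file headers. The deposited counts are whole numbers with low values peaking at multiples of 4 (1136 genes at 4 counts, 792 at 3 and 473 at 5 in KO library 1), so they were treated as estimated counts made by the authors, and rounding left them as they were. The FPKM were scaled by the authors to totals that include mitochondrial genes. With the summed counts as total, KO library 1 gave a length 1.18 times the GENCODE exon union for most genes (quartiles 1.182 and 1.185). A larger total would give the same factor.

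Libraries were grouped by the genotype label. Counts were tested with edgeR 4.0.16 (R 4.3.3): TMM scaling, filterByExpr with a minimum count of 10, trended dispersion, quasi-likelihood F-test, Benjamini-Hochberg adjustment over 20132 genes and a threshold of 0.05. The steps were checked on simulated counts. Log2 fold changes are KO over WT. Ratios of paralogues and summed FPKM were compared with two-sided exact permutation tests over libraries. Libraries held totals of 63612353 or more counts. The median variance over mean within a group was 6.20 in KO and 7.26 in WT, above Poisson noise for independent counts. Low counts peak at multiples of 4, so counts may not be independent. The part of these ratios that is spread between libraries was not tested.

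The members, the gene lists and the paralogue pairs were chosen with earlier results of these data known. Members were named in the text if they were Josephin genes, among the 5 with the highest FPKM, or among the 10 higher or 10 lower with the smallest p; Usp11, Usp19, Otud5, Usp45, Usp4, Usp33, Usp2, Tnfaip3, Cyld, Usp15, Usp18, Usp9x and Uchl5, and every other gene named outside the rule, were added after their values were seen. Of each other list up to 4 genes with the smallest p were to be named. Alternatives were library totals (with all genes, or without mitochondrial genes), median-of-ratios factors, DESeq2 1.42.0, robust dispersion, limma 3.58.1 on log2(FPKM + 1) and log2(FPKM + 0.1), no filter, a mean FPKM of at least 1, counts divided by 4, the replicate number as a block and each library left out. Totals without mitochondrial genes and their 8 nuclear copies, and removal of the exon-length trend, were added after seeing the data. Near-identical stretches are transcript matches of at least 97% over 100 bases or more, given as a share of the gene's longest transcript. Protein sequences were not used here, and promoters and their coordinates are RefSeq's on GRCm38.p6. The results of 2 listed genes are not reported here.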

Additional observations from a re-analysis of the deposited data

How the results depend on the processing

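Between-library scaling had the largest effect. With library totals the genes higher and lower in KO numbered 9425 and 768 (TMM: 2658 and 2323), the members 52 and 0 (TMM: 16 and 4), the members' median was 0.45 and Josd2 stood at -0.11 (adjusted p = 0.231, edgeR). Totals without mitochondrial genes gave 4911 and 1361 genes, 30 and 1 members and a median of 0.20, and totals without those genes and their nuclear copies gave 17 and 3 members. The deposited FPKM carry the same totals: limma on log2(FPKM + 1) gave 9447 and 867 genes, 50 and 0 members, a median of 0.31 and Josd2 at -0.10 (adjusted p = 0.124), and on log2(FPKM + 0.1) 9330 and 866 genes, 50 and 0 members, a median of 0.44 and Josd2 at -0.11 (adjusted p = 0.125). TMM-scaled FPKM gave KO over WT sums of 1.02 for all members, 1.06 for USP and 1.03 for UCH genes, and turned OTU (0.991), Josephin (0.885) and JAMM (0.857). In the order library totals, limma with 1 and limma with 0.1, signs turned for Psmd14 (0.094, 0.086, 0.093), Otud1 (0.041, 0.032, 0.034), Usp1 (0.13, 0.11, 0.12) and Uchl5 (0.25, 0.20, 0.26). They turned in those and in totals without mitochondrial genes, given last, for Josd1 (0.35, 0.31, 0.35, 0.10), Otub1 (0.33, 0.30, 0.33, 0.076), Otud6b (0.32, 0.29, 0.32, 0.061), Usp18 (0.30, 0.16, 0.36, 0.049), Usp9x (0.34, 0.28, 0.34, 0.089) and Cyld (0.38, 0.29, 0.37, 0.13). Cyld, at -0.03 by TMM, also turned to 0.0026 without mitochondrial genes and copies and to 0.0040 with no filter. Removing the exon-length trend left 12 higher and 8 lower members with a median of -0.033 and turned Usp15 to -0.11. The cause of these changes was not tested beyond the construction of each setting. DESeq2 gave 19 and 6 members, and the other settings of filter, dispersion and count scale 15 to 16 and 3 to 6. Leaving out 1 library gave 12 to 15 higher and 2 to 5 lower members, with 2 lower without KO library 3 or WT library 3, where Otud1 and Usp1 lost their calls. Over the same fits Otud6b ranged between -0.15 and 0.023, Cyld between -0.064 and 0.027, Usp15 between -0.044 and 0.10 and Usp18 between -0.44 and 0.19. Same-numbered KO and WT libraries did not deviate together (correlations -0.0008, -0.029 and -0.018). These values cannot show whether the numbers pair the libraries by design. The replicate block gave 15 higher and 5 lower members, Josd2 at -0.52 (adjusted p = 0.0014) and Usp33 without a call (adjusted p = 0.0723). With 3 libraries a group and no untreated aortas, effects of Ang II itself are not covered. Of the 11 members between 0.1 and 1 FPKM and the 8 below 0.1, 0 were called by edgeR, by DESeq2 or at an unadjusted p under 0.05.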
